A study of Mus musculus with 80 samples.

Results

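The baseline expression of normal tibialis anterior fibres was described in the 11 regions labelled normal that came from the 6 control animals, out of 80 regions in the study. Regions were assigned by their labels, with no measured value in the rule. Genes were ranked by their value over the negative probe of the same region, which targets no mouse gene, on a log2 scale, averaged over the regions of an animal and then over the 6 animals. The study used GeoMx, a NanoString assay, with the whole transcriptome probe set for mouse on 8 µm cross sections of flash-frozen tibialis anterior. Tagged probes bound to RNA are collected from an outlined area and counted by sequencing. Regions were of 4 labelled types, namely normal fibres, central nuclei, nerve bundle and surrounding artery. All animals were labelled WT on the C57Bl/6 strain, and the treatment label was tauopathy for 6 animals that expressed P301L tau and control for the other 6. Tau animals were labelled 4 female and 2 male, and controls 3 female (C2, C3 and C16) and 3 male (C20, C30 and C40), while the series text describes 3 animals per sex and treatment. These sexes are as labelled and do not match the levels of the Y-linked gene Ddx3y, which was looked at after values were seen. Ddx3y had log2 levels over the negative probe of 1.78, 0.37 and 1.35 in C2, C3 and C16, labelled female, and of −0.37, −0.01 and −0.62 in C30, C40 and C20, labelled male. All lie under the 2.28 to 2.76 that the highest odour receptor gene of each animal reached. C3 and C40 were both near the negative probe, so the mismatch is not clear for them. Labelled sex enters no result below. The series describes the controls as matched for sex and age and gives no age. The name of the deposited data also carries AAV8, a viral vector, and the labels do not say what the controls received. The labels also leave out how regions were picked, so the label normal is the submitters' own.

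The tibialis anterior of the mouse lifts the foot and is made almost wholly of fast fibres. Each fibre is a long cell packed with sarcomeres, in which myosin heads pull on actin filaments when calcium, released from the sarcoplasmic reticulum, binds troponin and shifts tropomyosin. Fast fibres use the fast paralogs of these proteins, pump calcium back with a fast calcium ATPase, buffer it with parvalbumin, and rebuild ATP from phosphocreatine, glycogen and glucose. Fibres with the heavy chain of type 2B are the fastest and most glycolytic, those of type 2X come next, and those of type 2A carry more mitochondria and myoglobin. A probe value depends on the probes as well as on the RNA, so ranks below are ranks of probe signal over background and not of transcript numbers. In a region of tissue, fewer cells of a type and less RNA per cell cannot be told apart.

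Slides and a single region stood apart before any gene was compared. Each slide held 2 control animals, C3 and C40 on slide 2, C16 and C20 on slide 3, and C2 and C30 on slide 1, and animal C20 gave 1 normal region where the others gave 2. The negative probe value was 40.8 to 47.4 on slide 2, 27.0 to 35.1 on slide 3 and 23.8 to 26.7 on slide 1. Total counts over the 10842 genes, worked out from the steps between the normalised values and so an estimate of depth, were 312262 to 2502999 per region with a median of 744213, and region C40_NORM1 had 315108 against 2265668 in C40_NORM2 of the same animal. Slide means of the log2 negative probe value, 5.48, 5.02 and 4.66 on slides 2, 3 and 1, were as far apart as any of the 15 assignments of 6 animals to 3 slides allows (exact permutation test, two-sided p = 0.0667, the smallest the design gives). Region C16_NORM1 differed from the rest in its fibre type genes, as Myh2 (myosin heavy chain of type 2A fibres) was 177 times the negative probe there and 0.947 to 1.60 times in the other 10 regions. The shares of signal, the counts of slide differences and the comparison of region types are also given without it. Mean levels, list medians and rank correlations include it. The labelled tissue held against its markers in every region, with Ckm at least 183 times, Acta1 at least 262 times, Myh4 at least 237 times and Pvalb at least 67.1 times the negative probe.

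The 250 bases before the RefSeq start of each of the 4 marker genes of fast fibres are printed here because these genes rank among the 11 highest and were far over the negative probe in every region. Coordinates are of build GRCm38.p6, the assembly also called mm10. The Acta1 window was chr8:123894776-123895025 on the minus strand, next to a gene at chr8:123891758-123894775. The Ckm window was chr7:19410844-19411093 on the plus strand, next to a gene at chr7:19411094-19421583. The Myh4 window was chr11:67237562-67237811 on the plus strand, next to a gene at chr11:67237812-67260447. The Pvalb window was chr15:78206401-78206650 on the minus strand, next to a gene at chr15:78191112-78206400. Capitals mark matches on either strand to TATAAA, to the E-box CANNTG bound by myogenic basic helix-loop-helix factors, to the CArG box bound by SRF, or to the MEF2 site.
Acta1: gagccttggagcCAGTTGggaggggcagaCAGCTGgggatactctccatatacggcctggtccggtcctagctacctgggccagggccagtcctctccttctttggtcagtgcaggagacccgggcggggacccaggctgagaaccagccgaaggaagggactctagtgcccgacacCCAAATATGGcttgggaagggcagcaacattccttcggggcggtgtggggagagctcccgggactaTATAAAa
Ckm: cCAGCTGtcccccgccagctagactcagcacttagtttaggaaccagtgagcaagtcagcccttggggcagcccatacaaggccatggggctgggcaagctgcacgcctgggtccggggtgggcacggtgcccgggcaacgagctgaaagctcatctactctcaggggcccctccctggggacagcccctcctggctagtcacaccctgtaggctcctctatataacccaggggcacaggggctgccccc
Myh4: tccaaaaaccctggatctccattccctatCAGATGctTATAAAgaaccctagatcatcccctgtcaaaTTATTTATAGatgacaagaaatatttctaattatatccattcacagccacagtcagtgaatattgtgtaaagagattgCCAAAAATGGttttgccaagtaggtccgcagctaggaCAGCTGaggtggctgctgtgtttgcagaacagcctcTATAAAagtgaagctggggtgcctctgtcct
Pvalb: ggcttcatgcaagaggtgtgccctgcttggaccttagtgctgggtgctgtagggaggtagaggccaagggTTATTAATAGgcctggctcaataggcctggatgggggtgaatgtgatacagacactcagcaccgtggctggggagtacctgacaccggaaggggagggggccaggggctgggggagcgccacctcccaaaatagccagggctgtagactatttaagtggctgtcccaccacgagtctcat
Acta1 held TATAAA at 7 to 2 bases before the start, a CArG box at 73 to 64 bases and E-boxes at 238 to 233 and at 221 to 216 bases. Myh4 held TATAAA at 31 to 26 bases and again at 213 to 208 and, on the reverse strand, at 179 to 174 bases. The last of these overlapped a MEF2 site at 182 to 173 bases, and Myh4 also held a CArG box at 104 to 95 bases and E-boxes at 221 to 216 and at 67 to 62 bases. Ckm held an E-box at 249 to 244 bases only, and Pvalb a MEF2 site at 180 to 171 bases only. Of the 50 genes with the highest rank, 39 had a window in the RefSeq table, against 8666 of the 10842 genes of the table. The CArG box was in 3 of the 39 windows (7.69%) against 1.35% of all windows of the same length, and the MEF2 site in 6 (15.4%) against 2.58%. TATAAA was in 7 windows (17.9%) against 9.99%, and the E-box in 32 (82.1%) against 57.8%. The median GC content was 58.4% in the top 39 windows and 58.4% in all windows. A match is a description of the letters and was not tested as a site.

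Skeletal muscle actin, the muscle creatine kinase, the fast calcium pump, the 2B myosin heavy chain and fast troponin T gave the strongest signals of normal fibres. Acta1, the thin filament actin of skeletal muscle, ranked first with a mean log2 level over the negative probe of 9.85 ± 1.18 (SD, n = 6 animals). Over the 11 regions it was 262, 1109 and 2214 times the negative probe at the lowest, the median and the highest. Ckm, which moves phosphate between phosphocreatine and ADP, had a log2 level of 9.72 ± 1.55 and was 183, 887 and 2764 times the negative probe. Atp2a1, the fast calcium pump of the sarcoplasmic reticulum, had a log2 level of 9.63 ± 1.18 and was 235, 985 and 1829 times. These SDs are larger than the gaps between neighbours in rank. They include differences between slides that the leading genes share, so they do not measure how steady the order is within animals. Myh4, the heavy chain of type 2B fibres, had a log2 level of 9.55 ± 1.28 and was 237, 908 and 2098 times the negative probe. Tnnt3, which ties troponin to tropomyosin in fast fibres, had a log2 level of 9.28 ± 1.42 and was 154, 758 and 1723 times. In all 6 animals the leading 5 genes were these 5, in differing order. In every one of the 5 genes the 4 regions of slide 2 were the lowest 4 and the 4 regions of slide 1 the highest 4.

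Below the leading 5 came the rest of the fast contractile set and the glycolytic enzymes. Tpm1, the tropomyosin that covers myosin sites on actin, had a log2 level of 8.54 ± 0.952. The glycolytic aldolase Aldoa had 8.11 ± 0.928 and the fast regulatory light chain Mylpf 7.99 ± 1.48. Fast troponin I (Tnni2) and fast troponin C (Tnnc2), the inhibitory and the calcium-binding subunits, had log2 levels of 7.54 ± 0.998 and 7.46 ± 0.908. Pvalb, the soluble calcium buffer of fast fibres, ranked 11 with a log2 level of 7.40 ± 0.985. Its fold over the negative probe was 67.1, 176 and 410 at the lowest, the median and the highest region, with 67.1 to 93.5 on slide 2, 168 to 220 on slide 3 and 272 to 410 on slide 1, so the slides did not overlap. The muscle enolase Eno3 (7.35), the polyubiquitin gene Ubb (7.07), Gapdh (6.76), the giant spring protein titin (Ttn, 6.72) and the glycogen phosphorylase Pygm (6.60) followed as mean log2 levels. Ranks 17 to 25 were held by the fast Z-disc actinin Actn3 (6.41), Tpm2 (6.41), the carbonic anhydrase Car3 (6.35) and the muscle subunit of cytochrome oxidase Cox6a2 (6.33). The titin-binding Ankrd23 (6.27), the ADP/ATP carrier Slc25a4 (6.27), nebulin (Neb, 6.20), the ATP synthase subunit Atp5a1 (6.18) and the phosphoglycerate mutase Pgam2 (5.99) completed them.

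**Figure D1:**
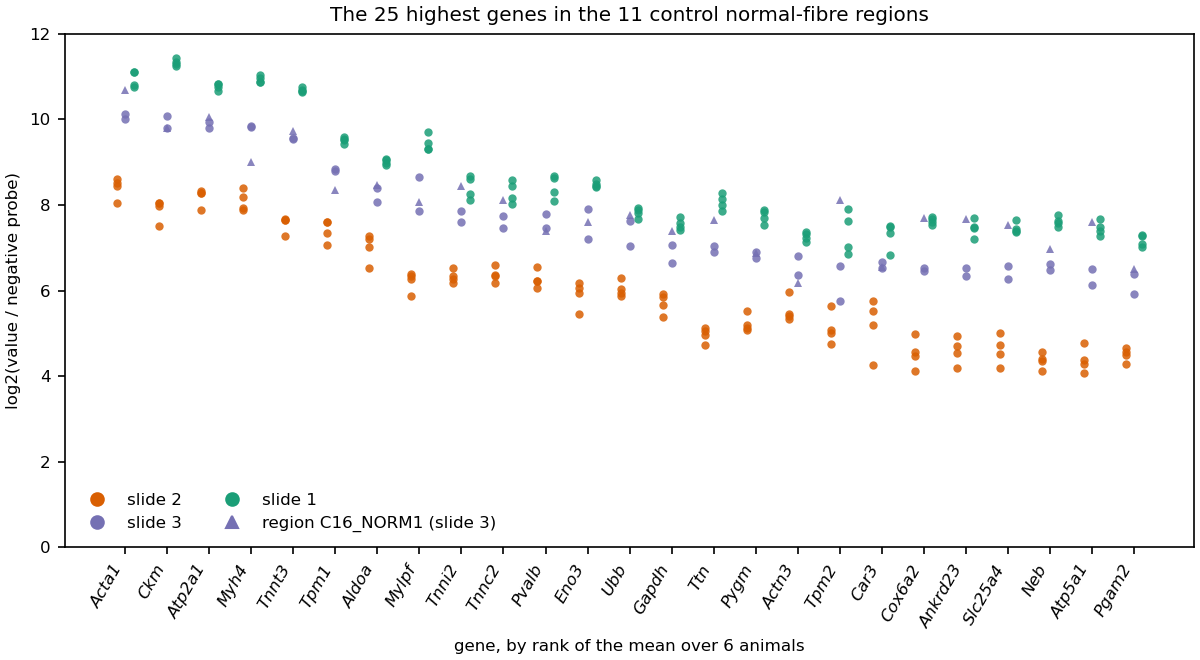
Log2 of the value over the negative probe (vertical axis) for the 25 genes with the highest mean over 6 animals (horizontal axis, by rank) in each of the 11 control normal-fibre regions; points are regions coloured by slide, and the triangle is region C16_NORM1. Acta1 leads at a mean log2 level of 9.85 and Pgam2 closes at 5.99, and the regions of slide 2 lie below those of slide 1 in each of the 25 genes.

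Of the signal above the negative probe, the 10 highest genes held 25.5% ± 5.12 (SD, n = 6 animals; 19.9% to 31.4%) and the 100 highest held 42.9% ± 6.54 (34.2% to 49.4%). The 10 highest held 20.2% on slide 2, 25.9% on slide 3 and 30.4% on slide 1 as slide means (exact permutation test over 15 assignments, two-sided p = 0.0667, the smallest possible). The share rests on subtracting the negative probe, because without the subtraction it was 17.2% for the 10 highest genes and 29.2% for the 100 highest. Without region C16_NORM1 the shares were 26.0% and 43.0%.

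A gene was counted as over background when it was at least 2 times the negative probe in all 6 animals. This held for 1244 of 10842 genes (11.5%), and the median gene had a log2 level of 0.70. At 1.5 times it held for 2933 genes, at 3 times for 464, and without the animals of slide 2 for 2740. Olfactory receptor genes, a family of odour receptors chosen after values were seen as a gauge of non-specific signal, had 82 of 749 members over that line (10.9%) and a median log2 level of 0.82. The highest of them, Olfr24, had a log2 level of 2.38 at rank 568, with ranks of 127 to 1904 over the animals. In every animal 115 genes exceeded the highest olfactory receptor of that animal, whose log2 level was 2.28 to 2.76. Levels below this range are therefore given here as values and not as expression.

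Within each contractile family at least 1 fast paralog stood far above its relatives, with Myh2 as the fast member that did not. Among myosin heavy chains Myh4 had a mean log2 level of 9.55, Myh1 of type 2X fibres 4.49, Myh2 of type 2A fibres 0.80 and the slow and cardiac Myh7 0.20. The embryonic Myh3 had 0.29 and the perinatal Myh8 0.55, both under the median gene. The level of Myh2 rests on animal C16 at 4.07, and the other 5 animals had −0.07 to 0.38. The sarcoplasmic calcium pump of fast fibres, Atp2a1, had a log2 level of 9.63, against 0.00 for Atp2a2, the pump of slow and cardiac muscle. Fast troponins had log2 levels of 9.28 (Tnnt3), 7.54 (Tnni2) and 7.46 (Tnnc2), against 0.38 (Tnnt1), −0.16 (Tnni1) and 1.01 (Tnnc1) for the slow ones and 0.55 for the cardiac Tnni3. The pattern was the same for actins and tropomyosins. Acta1 had 9.85, against 2.19 for the cytoplasmic Actg1, 1.65 for Actb, 0.89 for the cardiac Actc1 and 0.46 for the smooth muscle Acta2. Tpm1 and Tpm2 had 8.54 and 6.41, against 0.72 for the slow Tpm3 and 0.76 for Tpm4. Among light chains Mylpf had 7.99 and Myl1, the fast alkali light chain, 5.47, and next came the non-muscle Myl12a with 2.78 and Myl6 with 2.01. The ventricular and slow light chains Myl2 and Myl3 had −0.20 and 0.46. Muscle creatine kinase Ckm had 9.72 and its mitochondrial relative Ckmt2 3.93. Paralogs can share probe sequence, and cross-binding between them was not tested.

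**Figure D2:**
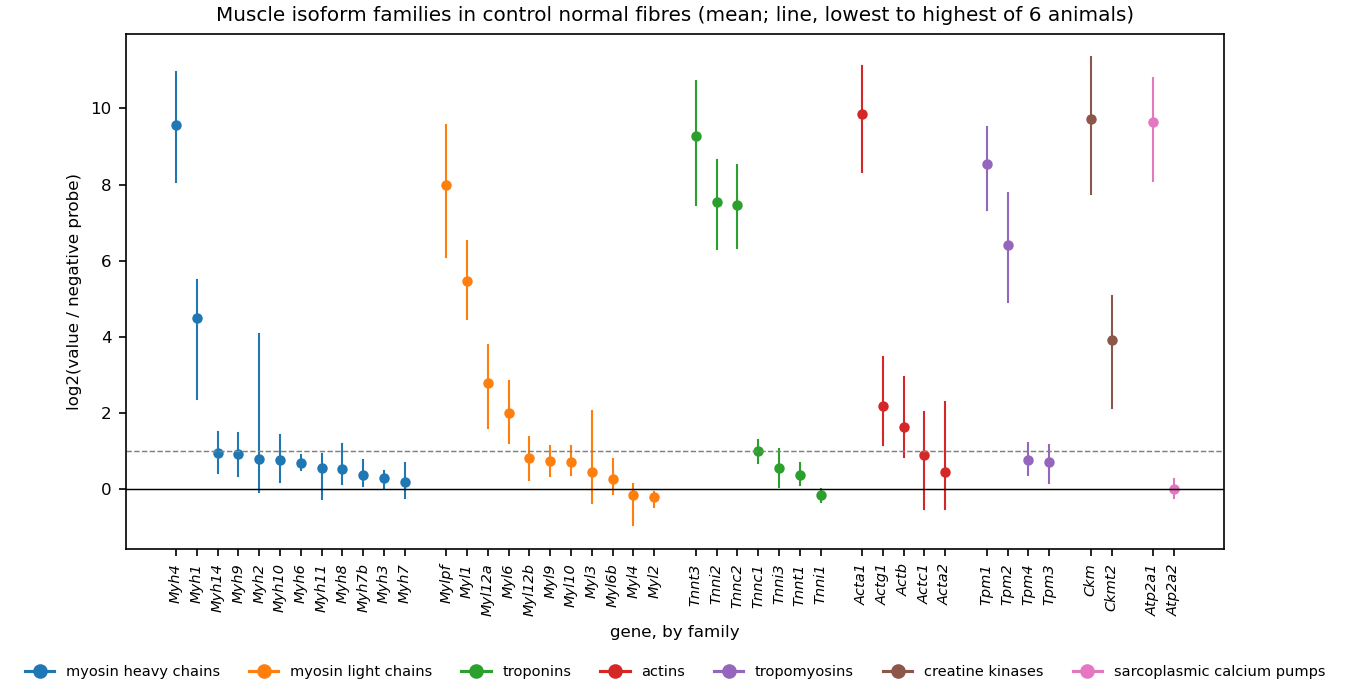
Mean log2 of the value over the negative probe (points) with the lowest and highest of 6 control animals (lines) for members of 7 muscle families; the dashed line marks 2 times the negative probe and the solid line equality with it. One or more fast members of each family lie above a log2 level of 5, and the slow and cardiac members Myh7, Tnni1, Tnnt1, Myl2 and Atp2a2 have means of 0.38 or less.

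Grouped by function, the fast sarcomere had the highest median level, and the slow sarcomere a median under that of all genes. Of 31 fast sarcomere genes measured, 26 passed 2 times the negative probe in all 6 animals (83.9%, against 11.5% of all genes), their median log2 level was 5.07, and 22 were among the 100 highest genes. The desmin gene Des (4.73), Myl1 (5.47) and Myh1 (4.49) belong to it below the leading 25. Of 12 slow sarcomere genes 1 passed, the Z-disc actinin Actn2 (3.02), and the median was 0.37. None of 9 developmental and regeneration genes passed, with a median of 0.29, and the leading member Myog, a factor of differentiating myoblasts, had 0.80. Calcium handling had 17 of 22 genes over the line and a median of 3.70, and below Atp2a1 and Pvalb its highest gene was the calcium store protein Casq1 (5.83).

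Fuel and energy genes followed. The phosphagen and nucleotide buffer set had 5 of 6 genes over the line and a median log2 level of 4.85, with the adenylate kinase Ak1 at 5.66 and the AMP deaminase Ampd1 at 5.09 after Ckm. Glycolysis had 12 of 18 (66.7%) with a median of 3.86, led by Aldoa, Eno3 and Gapdh. Glycogen use had 9 of 15 with a median of 3.12, and after Pygm came the phosphoglucomutase Pgm1 (4.21) and the phosphorylase kinase subunit Phka1 (4.10). The respiratory chain sets were lower in level than glycolysis or near it, but more of their genes passed the line. Respiratory complexes I and II had 37 of 41 genes over the line (90.2%) and a median of 2.69, with the subunits Ndufa4 and Ndufa3 among the highest. Complexes III and IV with ATP synthase had 34 of 38 (89.5%), a median of 3.38, and Cox6a2, Atp5a1 and Atp5b (5.85) as leaders. The tricarboxylic acid cycle had 16 of 22 with a median of 3.18, led by the malate dehydrogenase Mdh2 (5.12), the isocitrate dehydrogenase subunit Idh3a and citrate synthase (Cs, 3.99). Fatty acid use was low, with 8 of 25 (32.0%), a median of 2.09 and the acyl-CoA dehydrogenases Acadl (2.74) and Acadm (2.73) and the trifunctional protein subunit Hadha (2.60) as its highest genes. Oxygen and redox genes had 10 of 20 over the line with a median of 1.83, led by the oxygen store myoglobin (Mb, 5.16), the selenoprotein Selenow (4.22) and the superoxide dismutase Sod1.

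Housekeeping and regulatory sets had medians from 0.24 to 2.42. Cytosolic ribosomal protein genes had 66 of 76 over the line (86.8%, against 11.5% of all genes) with a median log2 level of 2.42. Only 2 were in the leading 100, Rpl4 (4.21) and Rps2 (4.05). Translation factors had 8 of 16 with a median of 2.27, and the elongation factors Eef2 (4.94) and Eef1a2 (4.50) and the translationally controlled Tpt1 (4.72) led. The chaperone list, which also holds the polyubiquitin gene Ubb, had 9 of 22 with a median of 1.82. Ubb was its highest gene, ahead of the chaperones Hspa8 (4.53) and Hsp90ab1 (4.01). Membrane excitability had 9 of 18, with the sodium pump regulator Fxyd1 at 4.47. Ubiquitin ligase and atrophy genes had 7 of 20 with Asb2 (4.71), Trim54 (3.52) and Fbxo32 (3.41), ligase genes of muscle. Of 26 regulators of muscle transcription 8 passed, with a median of 1.33, led by Fhl3 (3.72), Mef2c (3.64) and Mef2d (3.00). Neuromuscular junction genes had 1 of 12 over the line (8.33%), under the 11.5% of all genes. It was the regulatory kinase subunit Prkar1a (2.32), which lies below the highest olfactory receptor (2.38).

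Defining genes of other cells passed the line in 0% to 15.4% of each list, against 11.5% of all genes, and the lists of more than 1 gene had medians of −0.02 to 0.75, against 0.70 over all genes. Of 14 endothelial markers 1 passed 2 times the negative probe in all 6 animals and the median log2 level was 0.73, with Ly6c1 and Cav1 both at 2.02. Smooth muscle and pericyte markers had 2 of 13 and a median of 0.75. The first of the 2 is Des, which fibres make themselves, and the other is Rgs5 (2.60). Fibroblast markers had 0 of 13 over the line and a median of 0.73, with the matrix proteoglycan Dcn at 2.13. Schwann and nerve markers had 1 of 9 and a median of 0.37, immune markers 2 of 13 and −0.02, satellite cell markers 0 of 6 and 0.46, and adipocyte markers 0 of 6 and 0.40. The haemoglobin gene Hba-a1, the single red blood cell marker in the table, ranged from a log2 level of 0.60 to 4.53 over animals. Markers of other organs passed in 1 of 11 genes, the sperm protamine Prm1, which had a log2 level of 2.42 with an SD of 0.0901 over animals.

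The identity of the leading genes was steady over animals although their levels were not. Of the 10 highest genes of each animal 8 were shared by all 6, of the 25 highest 17, and of the 100 highest 71, with 138 genes in the leading 100 of any animal. Aldoa, Tnnt3 and Tpm1 kept their rank within 1 place, and Acta1 and Atp2a1 within 2 places. The median range of rank was 5 places for the 25 highest genes, with a largest of 15, and 26 places for the 100 highest, with a largest of 228. The edge of the 100 highest genes was blurred, as the gene ranked 100 and the 2 on either side of it had log2 levels, from higher to lower, of 3.99 (Pdk2), 3.98 (Rtn2), 3.97 (Slc23a2), 3.97 (Slc25a11) and 3.95 (Hspb6). Among the 200 highest genes the widest ranges belonged to Idh3g, an isocitrate dehydrogenase subunit, with ranks of 114 to 637, then Ruvbl2 with 52 to 545, Txlnb, Slc23a1, and Rprd1b with 61 to 483.

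Ranks set slide 2 apart from the other slides, in part over all genes and clearly among genes at 2 times the negative probe. Over all 10842 genes the Spearman correlation between animals of 1 slide was 0.793 to 0.924 (3 pairs, median 0.814), and between animals of different slides 0.479 to 0.854 (12 pairs, median 0.691). The 8 pairs with 1 animal on slide 2 had 0.479 to 0.788, and the 4 pairs between slides 3 and 1 had 0.741 to 0.854, which overlaps the values within a slide. These 2 ranges overlap each other too, as C20 on slide 3 had 0.788 with C3 and 0.752 with C40 on slide 2. With C2 and C30 on slide 1 it had 0.741 and 0.782. These are correlations across genes, which share the negative probe and the depth of a region and are not independent replicates. The 2 animals of a slide shared 91 to 93 of their 100 highest genes and animals of different slides 76 to 93, with 76 to 84 where 1 of them was on slide 2 and 85 to 93 between slides 3 and 1. Between regions, the median correlation was 0.788 within an animal (5 pairs), 0.767 between animals on a slide (10 pairs) and 0.597 between slides (40 pairs). Regions of an animal were thus hardly closer to each other than to regions of the other control animal on that slide. Over the 25 highest genes the correlation between animals was 0.839 to 0.968, and over genes at 2 times the negative probe the median over all 15 pairs was 0.617, lower than the 0.752 over all genes. In those genes the pairs with 1 animal on slide 2 had 0.483 to 0.617 and the pairs between slides 3 and 1 had 0.930 to 0.968.

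**Figure D3:**
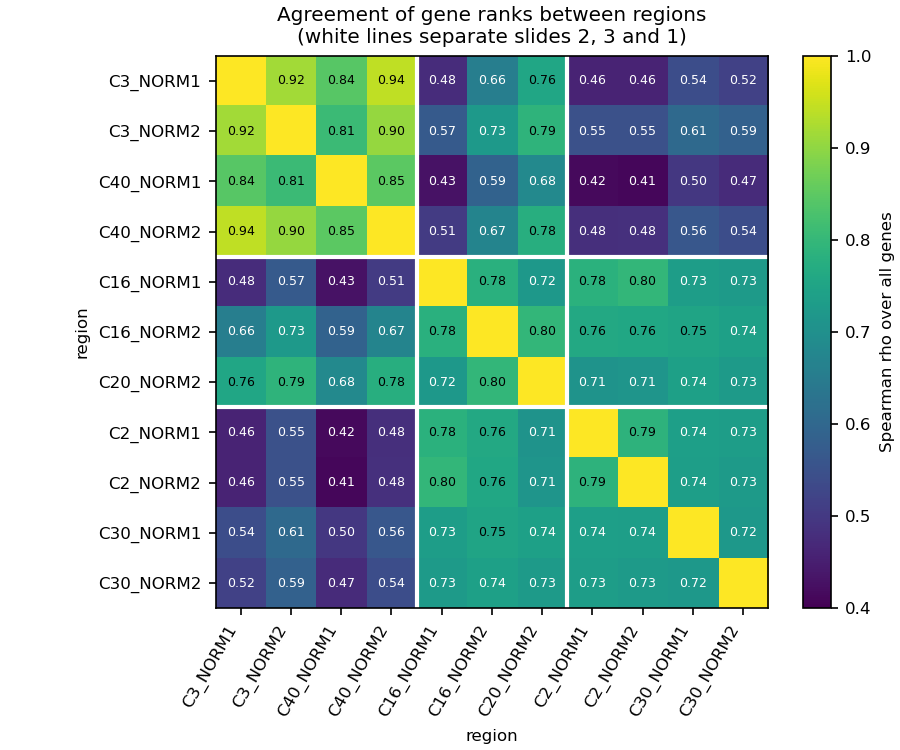
Spearman correlation of gene ranks over all 10842 genes between the 11 control normal-fibre regions (both axes), with the value in each cell and white lines between slides 2, 3 and 1. Pairs of regions on different slides range from 0.410 to 0.798, and pairs within an animal from 0.721 to 0.917.

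The level of the leading genes over the negative probe differed between slides. With slide as a factor (limma on the log2 level over the negative probe, 2 animals per slide, Benjamini-Hochberg adjustment over 10188 genes), 4129 genes (40.5%) passed an adjusted p of 0.05, 4122 of them lower on slide 2 than on slide 1 (40.5%) and 7 higher. Each p is of the moderated F test over all 3 slides, and the difference printed beside it is slide 2 minus slide 1. The median difference over all genes, slide 2 minus slide 1, was −0.61, and every difference below is to be read against it. All of the 25 highest genes passed and were lower on slide 2, with a median log2 difference of −2.58, and so were 99 of the 100 highest. Ckm differed most among the 25, with slide means of 239, 978 and 2578 times the negative probe on slides 2, 3 and 1 and a log2 difference of −3.43 (SE 0.216, limma adjusted p = 1.79e-05). Acta1 had slide means of 337, 1179 and 1967 times and a difference of −2.55 (SE 0.224, limma adjusted p = 2.14e-05). Pvalb had a difference of −2.16 (SE 0.243, limma adjusted p = 5.76e-05). The median log2 level of the 25 highest genes was 5.91, 7.37 and 8.07 on slides 2, 3 and 1, and that of all genes 0.42, 0.74 and 0.96. Olfactory receptors had medians of 0.85, 0.80 and 0.86, and 1 of 739 was higher and 1 lower on slide 2. The split depends on the scale: on log2(value + 1) of the Q3 values, where the median gene was 0.196 higher on slide 2, 1672 genes were higher and 1626 lower, with the 25 highest all lower. With quantile normalisation 4 of the 25 turned round and were above 0, Acta1 at 0.10, Gapdh at 0.072, Actn3 at 0.30 and Car3 at 0.037, and 13 others lost their call, Atp2a1, Myh4, Tnnt3 and Pvalb among them. Slide, the depth of its regions and the animals on it cannot be told apart with 2 control animals per slide, and each slide's own negative probe enters the measure.

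A few highly ranked genes had nearly the same level over the negative probe on every slide. Among the 200 highest genes, 6 had an SD below 0.25 over the 6 animals, against a median SD of 1.16 for the 200. Slc25a11, the mitochondrial carrier of oxoglutarate and malate, had log2 levels of 3.84 to 4.10 over animals and was 14.4 to 17.7 times the negative probe over the 11 regions. Its difference between slides 2 and 1 was 0.01 on the log2 scale (limma adjusted p = 0.938 over the 3 slides), and its rank ran from 37 to 260. The ascorbate transporter Slc23a2 had an SD of 0.113, and Rprd1b, Ruvbl2 and Slc23a1 had SDs of 0.0952, 0.112 and 0.145. These genes were picked for their small spread after values were seen. A steady ratio means that the value moved with the negative probe. Slc25a11 had Q3 values of 391 to 421 on slide 1 and 646 to 815 on slide 2. Olfactory receptors, the gauge of non-specific signal, were also level, with medians of 0.85, 0.80 and 0.86 on slides 2, 3 and 1. How much of the signal of the steady genes is specific was not tested.

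Fibre type genes differed widely between regions of the same animal. Myh1 was 7.54 and 3.51 times the negative probe in the regions of C3, 6.27 and 39.5 times in C40, 281 and 7.02 times in C16, and 45.4 times in C20. On slide 1 it was 15.7 and 71.0 times in C2 and 34.2 and 16.7 times in C30. The 2 regions of an animal thus differed by up to 5.32 on the log2 scale in C16, by 2.66 in C40 and by 2.17 in C2. Mb followed the same regions, with 7.95 and 25.9 times in C40, 361 and 22.9 times in C16 and 58.5 and 110 times in C2. Ckm did not, with 886 and 887 times in the regions of C16 and 266 and 265 times in those of C40.

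**Figure D4:**
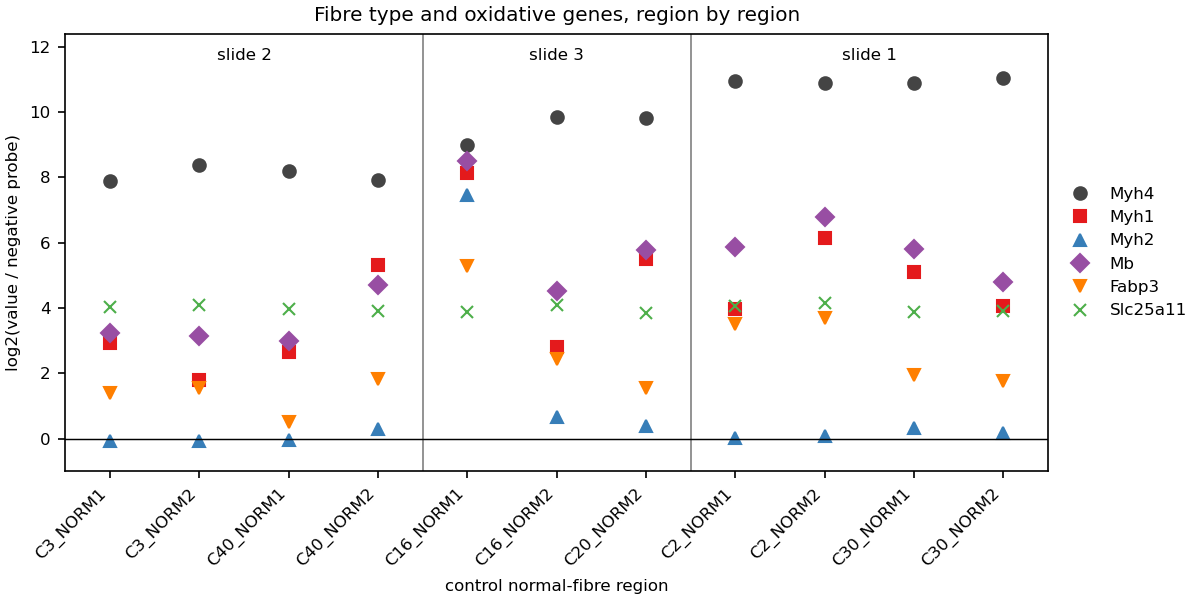
Log2 of the value over the negative probe (vertical axis) for 6 genes in each of the 11 control normal-fibre regions (horizontal axis), with slides 2, 3 and 1 set apart by grey lines. Myh2 is near 0 in 10 regions and high in C16_NORM1, Myh1 and Mb move together from region to region, and Slc25a11 stays between 14.4 and 17.7 times the negative probe.

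Region C16_NORM1 had high levels of the 2A and oxidative genes, and several other lists were also higher there than in C16_NORM2. Myh2 ranked 21 there, Myh1 ranked 10 at 281 times the negative probe against 3.51 to 71.0 in the other 10 regions, and Mb ranked 6 at 361 times against 7.95 to 110. The heart-type fatty acid binding protein Fabp3 was 38.9 times the negative probe there against 1.42 to 12.9. Myh4 was 512 times and ranked 5, against 927 times in C16_NORM2. In C16_NORM1 minus C16_NORM2, the median log2 difference was 1.26 for complexes I and II (41 of 41 genes above 0), 1.43 for complexes III and IV with ATP synthase (38 of 38), 1.35 for the tricarboxylic acid cycle (22 of 22) and 1.69 for fatty acid use (25 of 25). The same difference was 0.20 over all genes, 0.57 for ribosomal proteins and −0.05 for olfactory receptors. It was 0.72 for chaperones, 0.69 for translation factors, 0.60 for the fast sarcomere (26 of 31) and 0.51 for glycolysis (15 of 18). Endothelial markers were also above 0 in 12 of 14 genes with a median of 0.89. With 1 region on each side these differences have no replicate check.

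Against the other region types of the same control animals, normal fibres had less of the 2X and 2A heavy chains, myoglobin and mitochondrial genes, and slightly more of several fast fibre genes. The mean of the normal regions of an animal was set against the mean of its central nuclei, nerve bundle and surrounding artery means on log2(value + 1), paired within the 6 animals (limma, Benjamini-Hochberg adjustment over 10188 genes). Of 10188 genes 13 were higher (0.128%) and 126 lower (1.24%) in normal fibres, 1.36% in either direction. Myh1 had the smallest p, with Q3 values of 259, 1015 and 3907 at the lowest, median and highest animal in normal fibres. It had 508, 1755 and 8886 in central nuclei regions, 657, 5242 and 7324 in nerve bundle regions and 411, 4323 and 6672 in surrounding artery regions, so the ranges overlapped between animals. The log2 difference was −1.69 ± 0.101 (SE, limma adjusted p = 3e-08), below 0 in 6 of 6 animals. It was −0.91 against central nuclei, −2.26 against nerve bundle and −1.89 against surrounding artery regions. Mb had Q3 values of 429, 1516 and 5250 in normal fibres, against 928, 2104 and 10228 in central nuclei, 674, 6698 and 8128 in nerve bundle and 607, 4027 and 8692 in surrounding artery regions. Its log2 difference was −1.30 ± 0.111 (SE, limma adjusted p = 4.14e-06, lower in 6 of 6). Fabp3 (−0.92 ± 0.0914, limma adjusted p = 3.44e-05), the LIM protein gene Fhl1 (−1.68 ± 0.175, 4.72e-05) and the fatty acid enzyme Ech1 (−0.57 ± 0.0627, 7.14e-05) completed the 5 with the smallest p.

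Lists of mitochondrial genes held many of the lower genes. Fatty acid use had 20 of 25 genes lower and 0 higher with a median log2 difference of −0.48, against 0.01 over all genes tested. Complexes III and IV with ATP synthase had 23 of 38 lower and 0 higher with a median of −0.32, the tricarboxylic acid cycle 12 of 22 and 0 with −0.30, and complexes I and II 16 of 41 and 0 with −0.26. Among them Atp5a1 differed by −0.36 ± 0.068 (SE, limma adjusted p = 0.00978). Cytosolic ribosomal protein genes had 0 of 76 called with a median of −0.03. Olfactory receptors had 0 of 739 called but a median of 0.09. Of these receptors 590 of 739 lay above 0, against 5450 of 10188 genes tested, so this gauge of non-specific signal was slightly higher in normal fibres. In the fast sarcomere 3 genes were higher and 3 lower of 31. The lower ones were Myh1, Myh2 (−1.99 ± 0.247, limma adjusted p = 0.000249) and Mybpc1, the slow form of myosin-binding protein C (−0.48, limma adjusted p = 0.0127, lower in 5 of 6 animals), and the slow sarcomere list had Actn2 lower of its 11 tested genes (−1.21, limma adjusted p = 0.000159). Glycolysis had 1 of 18 lower, the heart-type lactate dehydrogenase Ldhb (−1.19, limma adjusted p = 0.000269). Mybpc1 and Ldhb are named because their lists hold few calls, after their values were seen.

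The genes higher in normal fibres were few and their differences small. Ampd1, the muscle AMP deaminase, had Q3 values of 523, 1306 and 1986 in normal fibres, against 507, 986 and 2029 in central nuclei, 371, 876 and 1153 in nerve bundle and 430, 1088 and 1386 in surrounding artery regions. The ranges overlapped, and within animals the log2 difference was 0.38 ± 0.0637 (SE, limma adjusted p = 0.00397, higher in 6 of 6). The sodium pump subunit Atp1b2 (0.45 ± 0.0763), the secreted phospholipase Pla2g7 (0.48 ± 0.0857) and Aebp1 (0.51 ± 0.0955) were next. Each was higher in 6 of 6 animals, with limma adjusted p-values of 0.00458 to 0.00978. In normal fibres Pla2g7 had Q3 values of only 56.2, 79.1 and 151, and Aebp1 of 63.2, 78.9 and 126. The negative probe was 23.8 to 47.4 in these regions, so the differences of Pla2g7 and Aebp1 are between values close to background. Of the 25 highest genes Actn3 (0.36 ± 0.0692, limma adjusted p = 0.0123) and Tpm1 (0.37 ± 0.0835, 0.031) were higher and Atp5a1 was lower. Myh4 missed the threshold at 0.40 ± 0.105 (limma adjusted p = 0.082, above 0 in 6 of 6 animals), with Q3 values of 11224, 27101 and 52291 in normal fibres, against 10484, 20033 and 51932 in central nuclei, 6373, 19852 and 29020 in nerve bundle and 7694, 22931 and 35621 in surrounding artery regions. Pvalb (0.28, adjusted p = 0.0711), Ckm (0.18, 0.583) and Acta1 (0.13, 0.707) did not pass the limma test either, which does not show that they were equal.

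These counts leaned on single regions. Without region C16_NORM1 the calls were 25 higher and 193 lower, Myh4 passed at 0.49, Myh1 was at −2.11 and Mb at −1.61, and complexes III and IV with ATP synthase had 30 of 38 lower. Without region C40_NORM1 they were 4 higher and 23 lower, with 5 of 25 fatty acid genes, 3 of 22 tricarboxylic acid cycle genes and 0 respiratory complex genes lower, and list medians of −0.43, −0.27, −0.28 and −0.24. Tpm1, Actn3 and Atp5a1 lost their calls there and Myh1 held its call at −1.46. Leaving out C2, C30 or C16 left 44, 47 or 87 genes called, and leaving out both animals of slide 1 left 6. Markers of other cells differed in part between the region types. Each marker list was pooled to a single log2 level over the negative probe, which is not a sum of the log2 levels of its genes. For the smooth muscle and pericyte markers (12 genes without Des) it was 0.476, 1.31 and 1.98 at the lowest, median and highest animal in normal fibres. It was 0.602, 1.28 and 1.90 in central nuclei, 0.516, 1.95 and 2.60 in nerve bundle and 0.473, 1.71 and 2.58 in surrounding artery regions. The 14 endothelial markers had 0.374, 1.04 and 1.61 in normal fibres, against 0.409, 1.03 and 1.57 in central nuclei. They had 0.398, 1.43 and 2.24 in nerve bundle and 0.308, 1.17 and 2.39 in surrounding artery regions. The 6 adipocyte markers had 0.118, 0.997 and 1.53 in normal fibres, against 0.212, 1.04 and 1.76 in central nuclei, 0.397, 1.65 and 2.05 in nerve bundle and 0.232, 1.16 and 2.37 in surrounding artery regions. The 13 fibroblast markers had 0.177, 1.10 and 1.72 in normal fibres, against 0.523, 1.28 and 1.60 in central nuclei, 0.3998, 1.54 and 2.67 in nerve bundle and 0.557, 1.499 and 2.75 in surrounding artery regions. The fatty acid genes called lower include Fabp4, Cd36 and Lpl, which adipocytes and, in part, endothelial cells also express, and the smooth muscle actin Acta2 was lower in normal fibres (−1.02 ± 0.160, limma adjusted p = 0.00254). Their part in the result was not tested.

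**Figure D5:**
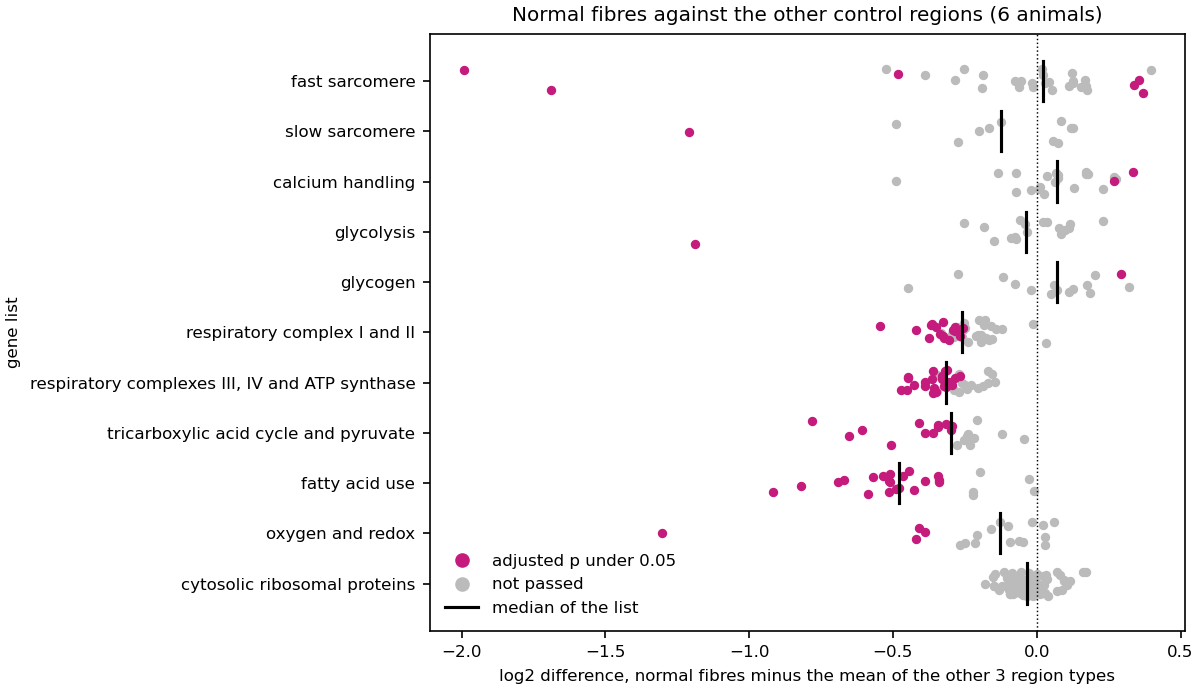
Log2 difference, normal fibres minus the mean of the other 3 region types in 6 control animals (horizontal axis), for each tested gene of 11 lists (rows); magenta points passed an adjusted p of 0.05, grey points did not, and black bars are list medians. The 4 mitochondrial lists have medians of −0.26 to −0.48, and ribosomal protein genes centre on −0.03.

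The ranking of control normal fibres carried over to tau normal fibres and to the other region types of the control animals. The other region types of the tau animals were not compared. The mean levels of tau normal fibres had a Spearman correlation of 0.961 with those of control normal fibres over 10842 genes and shared 91 of the 100 highest. The other region types of the control animals had 0.967 and 95 (central nuclei), 0.934 and 87 (nerve bundle) and 0.957 and 92 (surrounding artery), from the same animals and slides. Of the 25 highest genes 23 were shared with tau normal fibres.

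Between tau and control normal fibres no gene passed the threshold. With slide as a covariate (limma on log2(value + 1), 9 normal regions of 6 tau animals against 11 of 6 control animals, 10188 genes), 0 genes (0%) were called, 1385 had an unadjusted p under 0.05, and the lowest adjusted p was 0.0757. That gene was Sorbs2, a Z-disc and cytoskeleton adaptor, with a log2 value of 6.57 ± 0.406 in tau and 7.40 ± 0.651 in control normal fibres (SD, n = 6 each) and a difference of −0.83 (SE 0.138). The malic enzyme gene Me1 (−0.67) and Ky (−0.76), needed for muscle upkeep, came next, and Slc26a3 (0.52) had the smallest p among genes above 0. Of the 25 highest genes of control fibres 2 had a difference above 0, and the median of the 25 was −0.35 against 0.06 over all genes. The 25 were picked by their level in these same control animals. That choice can itself lower tau minus control, so the median is no test of the list. Over the negative probe, Ckm had a log2 level of 6.33, 8.98 and 10.87 at the lowest, median and highest animal in tau and 7.75, 9.93 and 11.34 in control normal fibres. Myh4 had 6.72, 8.32 and 10.44 in tau and 8.05, 9.63 and 10.96 in control normal fibres. The groups overlapped in both genes. Myh2 had 2.17 ± 1.99 in tau and 0.80 ± 1.61 in control fibres. Leaving out tau animal T7 gave 23 calls, T14 9 and control animal C40 1.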

How the data were processed

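The authors deposited signal values: GeoMx probe counts scaled to the upper quartile of each region (Q3), per the file headers. The values are linear and the negative probe was not subtracted. The genome build is mm10, per the submitters' processing notes, and no source used here names an aligner. Groups and animals came from the labels, and slides from the table header. Within a region, values are whole multiples of a step (at least 99.98% of values, with a tolerance of 0.02 of a step), which gave the totals per region, and no count test was run. No value was 0, the lowest was 2.26, and the upper quartile was 79.1.

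Regions were averaged per animal, the replicate unit, since regions of an animal share it. Region types were paired by the animal that the labels name for each region. Genes at 1.5 times the negative probe in 10% of the 80 regions were tested, which kept 10188 and left out 654 of the 10842. Models were fitted with limma 3.58.1 (moderated variances with a trend; Benjamini-Hochberg adjustment over all tested genes, called at 0.05) in R 4.3.3, with version 1.17.8 of data.table, and checked on simulated data. Levels and ranks used Python 3.11.15 with numpy 2.4.6, pandas 2.3.3 and scipy 1.17.1. Differences between region types and treatments used log2(value + 1), and levels and slides log2 of the value over the negative probe. Permutation tests over animals were exact. Alternatives were a pseudocount of 5, no filter, a filter at 2 times in 50% of regions (3128 genes), subtraction of the negative probe, quantile normalisation, slide as a covariate, 1 region per animal, no pairing, and leaving out each animal. Leaving out a slide or the regions C16_NORM1 and C40_NORM1 was added after seeing the data.

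Named genes were the 25 highest, the 4 fast fibre markers, the 3 highest of each of 27 lists with all members of the muscle isoform families, the genes around rank 100, the widest and narrowest 5 in range of rank among the 200 highest, and those with the smallest p in each test. Some genes that this rule names are not reported here. The region, members and lists were chosen with earlier results of these data known. Promoter windows are from the RefSeq table of GRCm38.p6, matched by symbol.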

Additional observations from a re-analysis of the deposited data

Results flagged for a closer look

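Among 137 levels and 35 differences of named genes over the 6 control animals, 6 had an animal whose gap to the nearest other animal over the whole range exceeded Dixon's critical value, which chance gives in about 1 in 20. Myh2 over the negative probe was highest in C16 at a log2 level of 4.07, against −0.07 to 0.38 in the other 5 animals, and this value rests on region C16_NORM1. The atrial light chain Myl4 was lowest in C20 at −0.94, against −0.07 to 0.13. Prx, a myelin protein of Schwann cells, was lowest in C30 at 0.91, against 1.13 to 1.22, and the neutrophil gene S100a8 was lowest in C2 at 1.16, against 1.57 to 1.72. The levels of Myl4, Prx and S100a8 lie below the highest olfactory receptor of each animal. Normal fibres minus the other region types was lowest in C20 for Aldoa at −0.24, against 0.09 to 0.21 in the other animals, and for Tnni2 at −0.37, against 0.05 to 0.16. C20 is the control animal with 1 normal region.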

How the results depend on the processing

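For normal fibres against the other region types (139 genes, 13 higher and 126 lower), the fit without the pairing by animal (no replicate block) called 0 genes, 0 higher and 0 lower, at the same mean differences. Leaving out each animal gave 44 to 131 calls, 2 to 16 higher and 42 to 121 lower. A single region per animal and type gave 1 call (0 higher, 1 lower), leaving out the animals of slide 1 gave 6 (0 higher, 6 lower), and those of slide 3 gave 82 (69 lower). Without region C16_NORM1 there were 218 (25 higher, 193 lower), and without C40_NORM1 27 (4 higher, 23 lower). Subtracting the negative probe gave 83 lower and quantile normalisation 41 higher. Over the named genes of this comparison 563 values kept direction and side of the threshold, 59 lost their call, 20 gained one and 23 changed sign without a call.

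For slides (4129 genes, 7 higher and 4122 lower on slide 2 than on slide 1), log2(value + 1) gave 1672 higher and 1626 lower, subtraction 139 higher, and quantile normalisation 535 higher. The stricter filter called 2203 (1 higher, 2202 lower) of fewer genes tested. Leaving out each animal gave 2521 to 4595 calls, 0 to 66 higher and 2521 to 4585 lower, and leaving out C16_NORM1 or C40_NORM1 gave 11 higher each. Under quantile normalisation Acta1 (0.10), Gapdh (0.072), Actn3 (0.30) and Car3 (0.037) changed sign and 13 of the 25 highest genes lost their call, and the cause was not tested. The comparison of tau with control gave 0 to 23 calls when an animal was left out. The median rank correlation was 0.617 over genes at 2 times the negative probe and 0.589 without slide 3. Genes over the negative probe numbered 2933 at 1.5 times, 464 at 3 times and 2740 without slide 2, and the top shares were 17.2% and 29.2% with no subtraction. Regions held 1537 to 2513 genes at 2 times the negative probe on slide 2, 3420 to 4792 on slide 3 and 5486 to 6089 on slide 1, at median totals of 2116226, 747803 and 393700 counts.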
